A study of Mus musculus with 9 samples.

Results

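The cytosolic ribosomal protein genes encode the proteins of the large (60S, Rpl and Rplp names) and small (40S, Rps names and Rpsa) subunits of the ribosome, and their transcripts were examined in lymphatic endothelial cells (LECs) of 3 mouse tissues. Members were the genes whose symbol is Rpl or Rps with a number, with or without a final a, x, y or l, together with Rplp0, Rplp1, Rplp2 and Rpsa. This rule uses names alone and took 82 of the 23018 genes in the count table, 50 of the large and 32 of the small subunit. Of these, 81 carried a symbol in the table and 1 (Rpl6l) was named through its Ensembl identifier. Genes with other name forms lie outside the rule, among them Fau, which encodes a ribosomal protein fused to a ubiquitin-like protein, and the paralogs Rpl22l1, Rpl36al and Rpl7l1.

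The cells came from untreated wild-type male C57/Bl6 mice aged 10 weeks and were sorted as CD45-CD31+PDPN+ cells (no leukocyte antigen, the endothelial antigen CD31 and podoplanin) from meninges, diaphragm and skin. Each tissue gave 3 libraries, and by the labels the groups differ in tissue and share strain, sex, age and gate. Levels of markers of other cell types also differed between the libraries, as given below. The labels leave unsaid whether replicates are separate animals or pools, and p-values therefore measure only the spread between these libraries. RNA was amplified before sequencing with the NuGEN Ovation system.

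A ribosome holds 1 copy of nearly every ribosomal protein, so cells must supply them in matched amounts. Their transcripts are the best known TOP mRNAs: they begin at a cytosine within a run of pyrimidines, through which mTOR signalling and the protein LARP1 adjust their translation. In endothelium, as in other tissues, high ribosomal protein expression goes with cell growth. Mammalian genomes also carry many processed pseudogenes of these genes, and a few have expressed paralogs with a restricted pattern, such as Rpl3l in striated muscle and Rpl10l and Rpl39l in testis.

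Start sites of some of the members named in the results are printed here, so that pyrimidine runs near annotated starts can be seen beside starts without one. Each window runs from 20 bases before to 10 bases from the annotated start (RefSeq, GRCm38.p6, another build than the mm9 of the counts), 5′ to 3′ on the gene's strand, with the longest run of C and T in capitals. The first 5 hold a run of at least 10 pyrimidines, and the last 3 hold none of 8 or more, here or in the wider window searched next. In Rpl4, Rpl31 and Rps15a the run ends before the annotated start, while in Rpl35 and Rplp2 it spans the start. Whether any transcript begins within such a run was not tested.
Rpl4, chr9:64173367-64173396, + strand: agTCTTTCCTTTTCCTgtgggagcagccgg
Rpl31, chr1:39367831-39367860, + strand: caCCTCTTCCTCCTCgcctccccgtgaccc
Rps15a, chr7:118116138-118116167, - strand: gcccaCTCTCTTTCTgccatcttccctcgc
Rpl35, chr2:39005122-39005151, - strand: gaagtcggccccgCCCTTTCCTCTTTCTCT
Rplp2, chr7:141447631-141447660, + strand: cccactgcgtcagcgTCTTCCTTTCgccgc
Rps3, chr7:99483700-99483729, - strand: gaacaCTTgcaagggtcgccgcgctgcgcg
Rps13, chr7:116334181-116334210, - strand: cgcgcgagagcaaacgTCggtgagtggcgt
Rps4x, chrX:102189382-102189411, - strand: aaagTCTgaggctgggcggagcaacccagg

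Of the 82 members, 60 had a promoter in the RefSeq table (250 bases before to 50 after the start). A run of at least 8 pyrimidines on the gene's strand between 30 bases before and 40 after the start was present in 43 of them (71.7%), against 28.6% of 26965 other genes. The unit is the gene, and some genes had several promoters, such as Rpl34 with 2. The word CTTTCC, searched on the gene's strand in the same window and able to lie inside such a run, occurred in 16 members (26.7%) and 3.76% of other genes. CCGGAAG, a word of the kind that ETS factors bind, was searched on both strands over the 300 bases. It was found in 25 members (41.7%) against 9.86% of other genes, and TATAAA in 6 (10.0%) against 15.7%. These matches describe letters near annotated starts, not sites in use.

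Depth and identity of the libraries bear on every value that follows. Total counts ran from 26075366 to 34592850, and the mitochondrial ribosomal RNAs took 10.8% to 30.8% of them. All 8 LEC markers examined (among them Prox1, Flt4, Lyve1 and Pdpn) had counts in each library, with summed levels of 6345 to 15133 CPM in meninges, 13810 to 19732 in diaphragm and 19682 to 20454 in skin. CPM here is the read count scaled by the library's total and its TMM factor. The 7 fibroblast markers summed to 1308, 7700 and 7557 CPM in Meninges replicates 1 to 3, against 112 to 1340 CPM in the other 6 libraries. The 7 skeletal muscle markers summed to 390 to 1041 CPM in diaphragm and to at most 269 CPM elsewhere, and in Diaphragm replicate 1 the 5 mesothelial markers summed to 1117 CPM.

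Ribosomal protein transcripts stood at a moderate level and took a small share of these libraries. Of all counts they held 0.508%, 0.453% and 0.545% in Meninges replicates 1 to 3, 0.652%, 0.633% and 0.551% in diaphragm, and 0.481%, 0.535% and 0.338% in skin. In each library, annotated ribosomal protein pseudogenes (172 rows) held between 1.27% and 2.85% as many counts as the members. In bulk samples such as these, fewer cells of a type and less RNA per cell cannot be told apart.

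In meninges the large-subunit genes summed to 2590 ± 329 CPM, against 3459 ± 180 for diaphragm and 2959 ± 578 for skin (SD, n = 3 each). The small-subunit genes summed to 1875 ± 309, 2709 ± 144 and 2100 ± 313 CPM in the same order. For both subunits together the diaphragm libraries held 6263, 6328 and 5911 CPM, above each meningeal library (4659, 3757 and 4979) and each skin library (5225, 5786 and 4166). Meningeal and skin libraries overlapped, and these sums are descriptions without a test. As a share of counts outside mitochondrial genes the order was the same, with 0.611% ± 0.089 in meninges, 0.803% ± 0.026 in diaphragm and 0.639% ± 0.145 in skin. As a share of all counts meninges (0.502% ± 0.046) stood above skin (0.451% ± 0.102), so the order of those tissues depended on the scale.

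**Figure D1:**
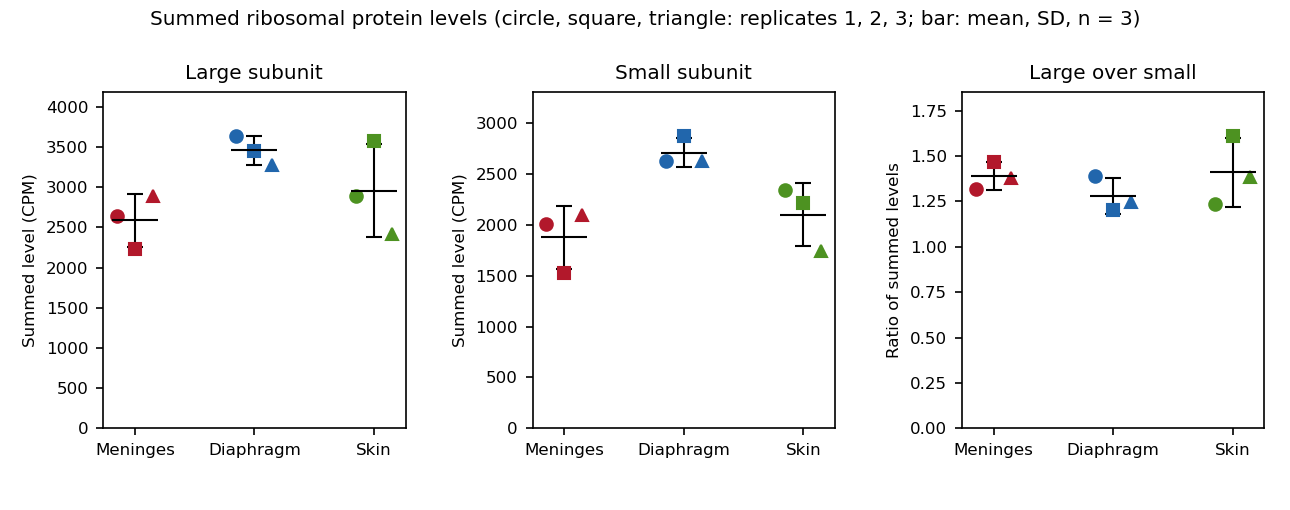
Summed levels (CPM) of the large-subunit and small-subunit genes and the ratio of the sums, by tissue; symbols are libraries and bars the mean and SD of 3. For the small subunit the 3 diaphragm libraries lie above the 6 others, while the ratios of the 3 tissues overlap.

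The ratio of large to small sums was 1.32, 1.47 and 1.38 in Meninges replicates 1 to 3, 1.39, 1.20 and 1.25 in diaphragm and 1.23, 1.61 and 1.39 in skin. The tissue means were 1.39 ± 0.08, 1.28 ± 0.10 and 1.41 ± 0.19 (SD, n = 3 each), and the libraries of all 3 tissues overlapped. The value itself depends on which genes are counted, as it fell to 0.922, 0.953 and 0.988 when only members with little sequence shared with other genes were kept.

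After removal of genes with low counts, 78 members remained among 14831 genes tested, 46 of the large and all 32 of the small subunit. The 4 that did not pass were Rpl3l, Rpl10l, Rpl39l and Rpl6l. None of the 78 was called at an edgeR quasi-likelihood adjusted p under 0.05 (Benjamini-Hochberg, over all genes tested) in any of the 3 comparisons, which share libraries with each other. The background was low as well, with 0.344% of genes called between meninges and diaphragm, 1.32% between meninges and skin and 0.0405% between diaphragm and skin. At an unadjusted p under 0.05 the edgeR test gave 3 members, 1 member and 2 members, against 10.1%, 13.8% and 11.8% of all genes. DESeq2 and limma voom called no member either, while over all genes the DESeq2 Wald test called 4.25%, 7.50% and 5.495% and voom 1.35%, 2.79% and 0.00674%. At the same unadjusted threshold DESeq2 gave 6, 1 and 3 members, against 12.6%, 17.0% and 15.02% of all genes, and voom gave 5, 0 and 1, against 13.0%, 15.5% and 8.72%.

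The intervals show what these data could resolve. The median 95% interval of a member's log2 fold change reached 1.30 to each side in each comparison. Estimates lay within 1 log2 unit of 0 for 71, 72 and 71 of the 78 members, in the order meninges against diaphragm, meninges against skin and diaphragm against skin. This was 91.0%, 92.3% and 91.0% of the members, against 52.7%, 48.9% and 49.5% of all genes tested. Differences of about the size of the interval in a single gene were therefore not detectable at this spread, and the absence of calls does not show equal levels.

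**Figure D2:**
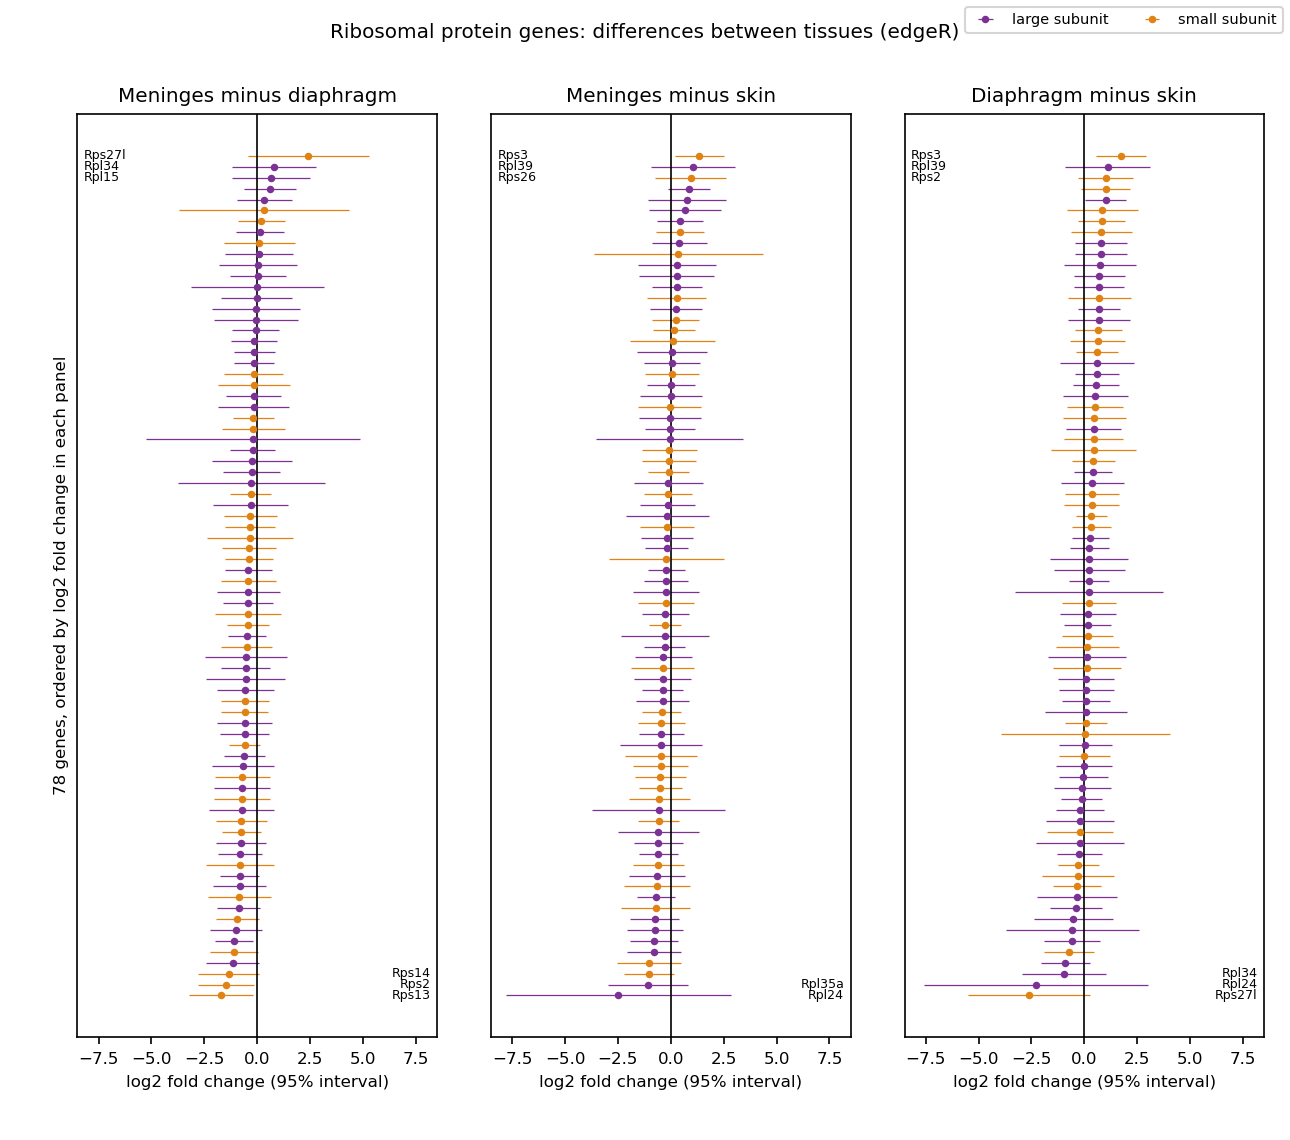
Log2 fold change (point) and 95% interval (line) from edgeR for the 78 members in each of 3 comparisons, ordered by value within each panel, with most of the 3 highest and 3 lowest genes named. In the first panel 65 of the 78 points lie below 0, and in the third 55 lie above 0.

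Most members had a lower level in meninges than in diaphragm without any passing the test. The log2 fold change was negative for 65 of 78, 37 of 46 in the large and 28 of 32 in the small subunit, with a median of -0.42, while 48.3% of all genes tested were negative with a median of 0.05. All 3 meningeal libraries lay below all 3 diaphragm libraries for 20 members (25.6%), against a background of 6.7% of genes tested. No member lay above in this way, where the background was 10.4%. With libraries scaled by total counts alone these counts were 12 below (15.4%, against 4.90% of all genes) and 2 above (2.56%, against 12.4%), and 52 of 78 estimates were negative with a median of -0.22. Members share the library scaling and vary less between replicates than other genes, so these are 78 readings of the same 6 libraries and not independent ones. Without Meninges replicate 2, which had the lowest LEC marker sum and the highest fibroblast marker sum, 58 of 79 members were negative with a median of -0.39; the part of other cell types in the difference was not tested.

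The member with the smallest p between meninges and diaphragm was Rpl9, a protein of the large subunit near the base of the stalk. Its levels were 87.8, 65.3 and 64.4 CPM in Meninges replicates 1 to 3, 170, 130 and 165 CPM in diaphragm and 100, 97.3 and 151 CPM in skin. Every meningeal library stood below every diaphragm library, by total counts too, and below every skin library with TMM scaling, whereas by total counts meninges and skin overlapped. The log2 fold change was -1.10 (standard error 0.42, edgeR adjusted p = 0.378) against diaphragm and -0.68 (standard error 0.42, edgeR adjusted p = 0.543) against skin.

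Rps2, at the mRNA entry channel of the small subunit, had 27.7, 27.5 and 38.7 CPM in meninges, 97.4, 118 and 49.7 in diaphragm and 34.8, 63.0 and 33.5 in skin. The meningeal libraries were all below the diaphragm libraries and overlapped those of skin (log2 fold change against diaphragm -1.50, standard error 0.61, edgeR adjusted p = 0.416). Rps13, a small-subunit protein at the interface with the large subunit, had 22.01, 15.9 and 18.4 CPM in meninges, 88.3, 37.9 and 59.7 in diaphragm and 31.5, 56.4 and 27.0 in skin. Its meningeal libraries lay below those of diaphragm on both scales, and below those of skin with TMM but not by total counts (against diaphragm -1.72, standard error 0.71, edgeR adjusted p = 0.417). Rps21, next by p, measured 58.1, 30.1 and 72.8 CPM in meninges against 86.8, 156 and 105 in diaphragm, again without overlap (-1.11, standard error 0.53, edgeR adjusted p = 0.515).

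Between meninges and skin, 55 of 78 members were negative, with a median log2 fold change of -0.21 against 0.08 over all genes. The libraries did not overlap for 5 members that were lower in meninges (6.41%, against a background of 7.34%) and for 1, Rps26, that was higher (1.28%, against 12.9%). The lower ones were Rpl9, Rpl14, Rplp1, Rps13 and Rps7. This share was near the background. By total counts alone the direction turned: 0 members were lower without overlap (4.61% of all genes were), 6 were higher (7.69%, against 16.8%), and 47 of 78 estimates were positive with a median of 0.15 against 0.44 over all genes. With upper-quartile factors 6 were lower (7.69%, against 7.24% of all genes) and 0 were higher, where 12.8% of all genes were. Between diaphragm and skin, 55 of 78 were positive, with a median of 0.22 against 0.01 over all genes. Rps3, Rpl3, Rps9, Rplp0, Rps29 and Rpl39 (7.69%) were higher in diaphragm without overlap, where 7.54% of all genes were, and Rplp1 and Rpl34 (2.56%) were lower, where 5.95% were. By total counts alone 11 were higher (14.1%, against 8.79% of all genes) and 1 was lower (1.28%, against 4.75%). Rps26, Rps7, Rps9, Rps29, Rpl14 and Rpl34 are named here because of these values.

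The difference between diaphragm and skin rested largely on 1 library. Without Skin replicate 3, 41 of 79 members were positive and 38 negative, with a median log2 fold change of 0.03, and the median between meninges and skin moved from -0.21 to -0.40. That library held the lowest level of 24 of the 78 members (30.8%, against 13.8% of all genes tested), the fewest genes with a count (13241) and the highest pseudogene share. Meninges replicate 2 held the lowest level of a further 21 members (26.9%, against 8.75% of all genes). The highest level fell in a diaphragm library for 16, 14 and 15 members in replicates 1 to 3. The share of all genes with their highest level there was not computed, so these counts have no background. Whether RNA quality or cell number in these libraries moved with these levels was not tested.

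**Figure D3:**
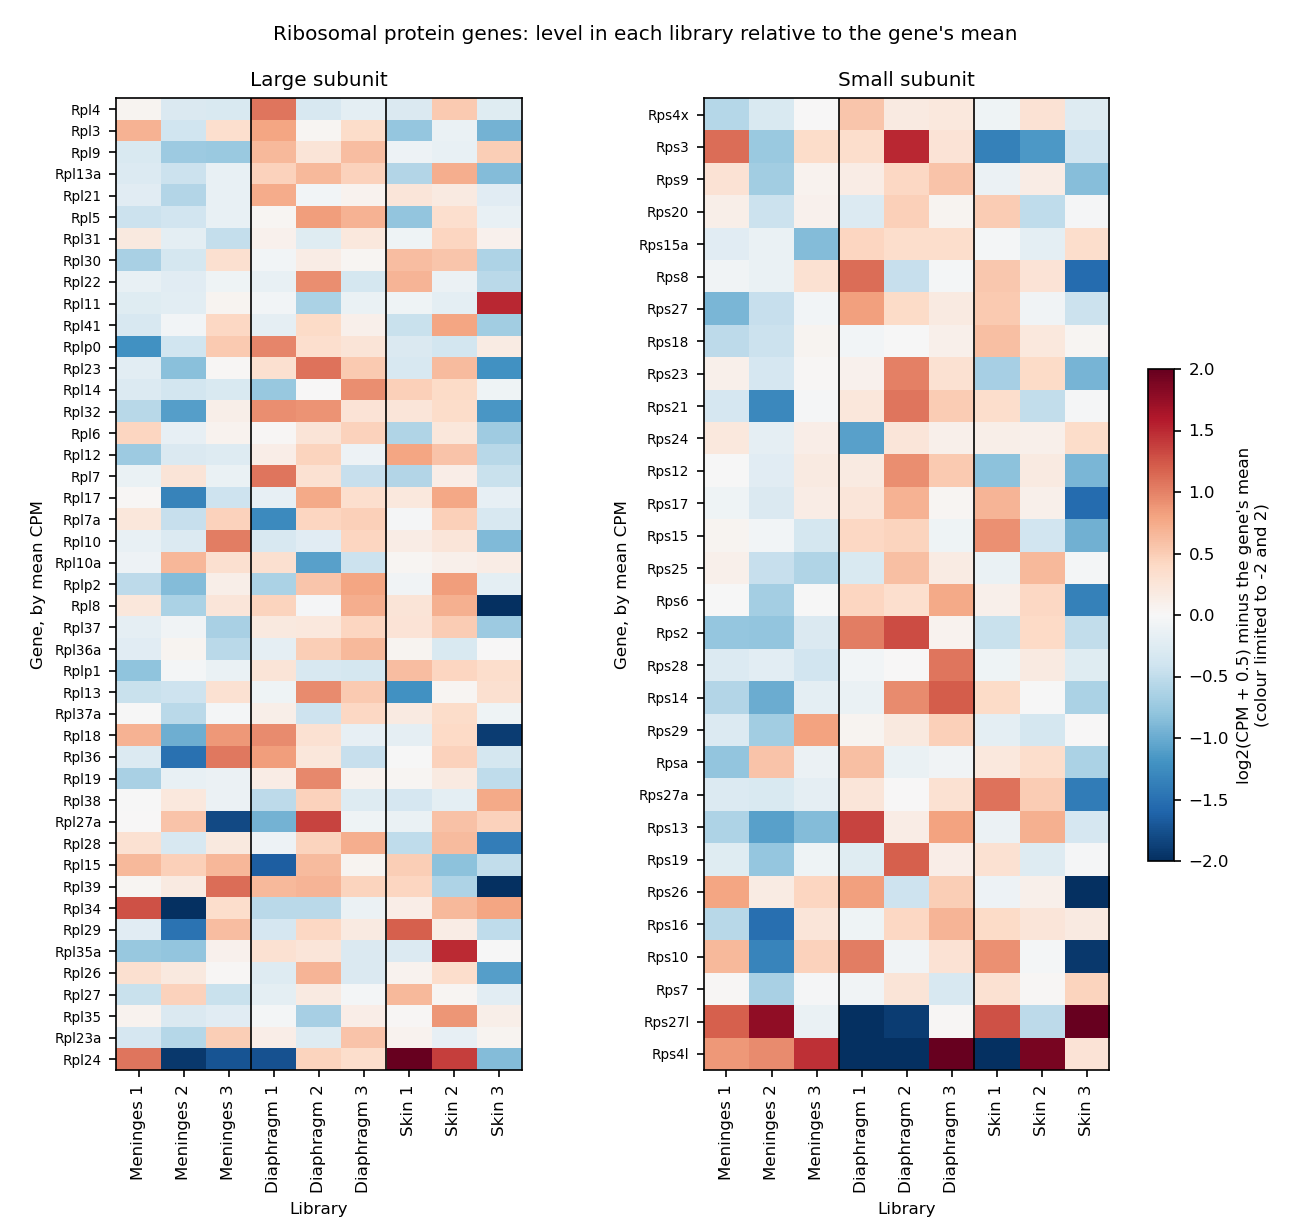
Level of tested members in each library as log2(CPM + 0.5) minus the gene's mean over the 9 libraries, large subunit left and small subunit right, genes in order of mean CPM. Blue columns in Meninges 2 and Skin 3 and red ones in diaphragm show the libraries where most members were lowest or highest, and the rows of Rps27l, Rps4l and Rpl24 vary widely within a tissue.

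Rps3, which lines the mRNA entry channel and also takes part in DNA repair, had the smallest p of all members between diaphragm and skin. Its levels were 156, 346 and 147 CPM in diaphragm, 264, 72.6 and 157 in meninges and 47.6, 54.5 and 93.1 in skin. All diaphragm libraries exceeded all skin libraries. With TMM scaling Meninges replicate 2 fell within the skin range, while by total counts it stood above every skin library (88.5 against at most 75.7). The log2 fold change against skin was 1.73 for diaphragm (standard error 0.54, edgeR adjusted p = 0.302) and 1.34 for meninges (standard error 0.54, edgeR adjusted p = 0.283), and the latter was 0.82 without Meninges replicate 1. With the DESeq2 Wald test the adjusted p for diaphragm against skin was 0.0568, the closest approach to a call by any member in any setting.

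Rpl3, beside the peptidyl transferase centre, stood at 195, 115 and 145 CPM in diaphragm, 183, 85.1 and 142 in meninges and 65.9, 103 and 58.3 in skin. Diaphragm was above skin in all libraries, and with TMM scaling meninges overlapped both. By total counts meninges too was above skin in all libraries. The log2 fold change was 1.004 for diaphragm against skin (standard error 0.46, edgeR adjusted p = 0.414). It was 0.86 for meninges against skin (standard error 0.45, edgeR adjusted p = 0.455). Rps12 measured 74.5, 126 and 94.8 CPM in diaphragm against 37.0, 74.7 and 34.6 in skin (1.01, standard error 0.54, edgeR adjusted p = 0.491). These overlapped through Skin replicate 2 with TMM scaling but not by total counts.

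**Figure D4:**
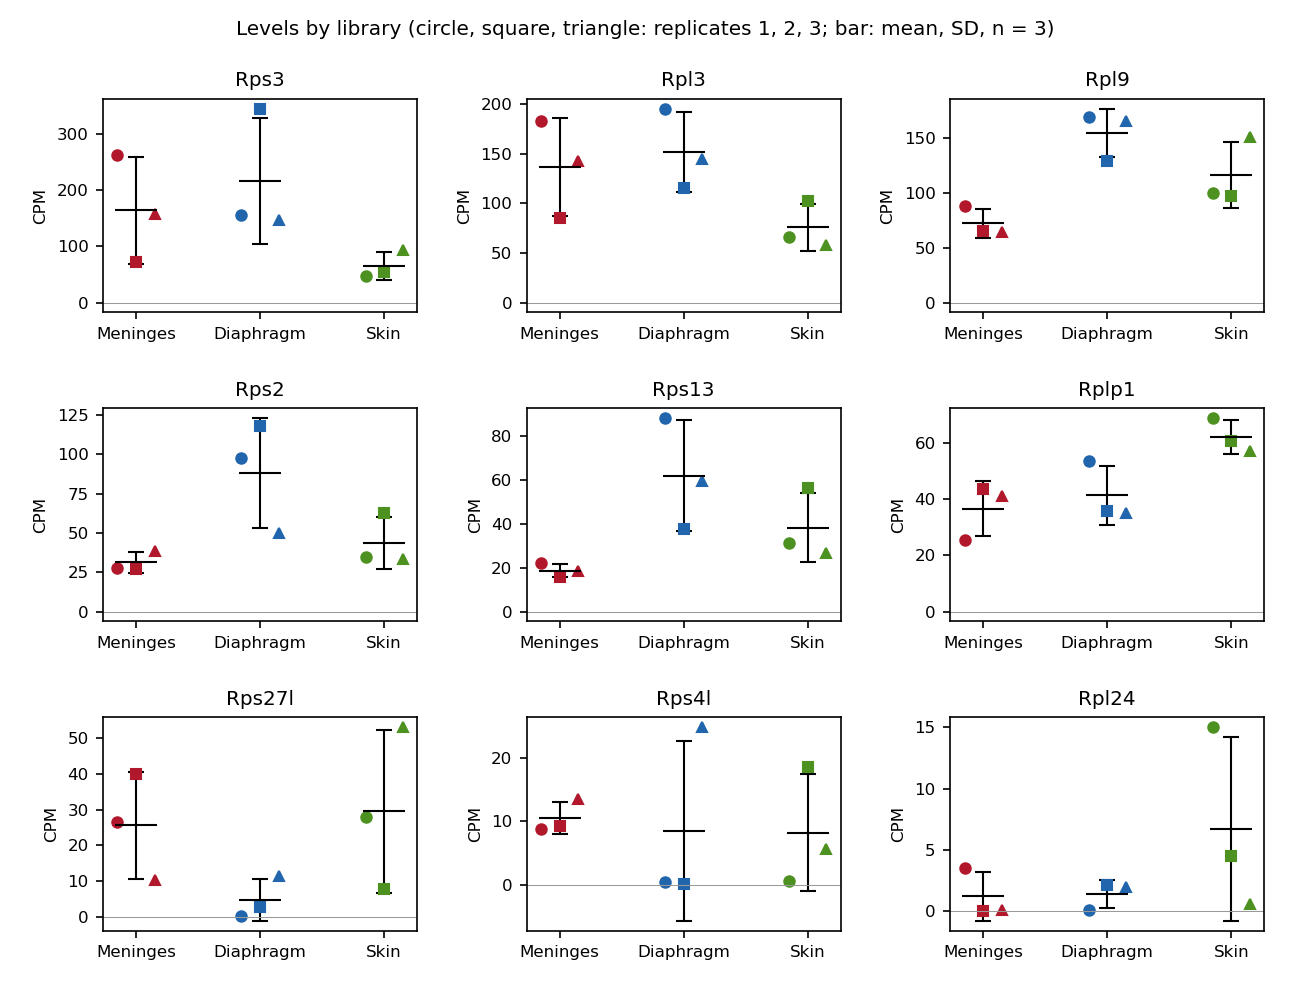
CPM by library for 9 members; symbols are libraries and bars the mean and SD of 3 per tissue. With TMM scaling Rpl9 and Rps13 are lowest in the 3 meningeal libraries and Rplp1 is highest in the 3 skin libraries, while by total counts meninges and skin overlap for all 3; Rps27l, Rps4l and Rpl24 vary widely within a tissue.

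Scaling by total counts would raise every log2 fold change by 0.19 (meninges against diaphragm), 0.36 (meninges against skin) or 0.16 (diaphragm against skin), so list medians closer to 0 than this can change sign. By role in the ribosome, the 4 genes of the P stalk, which recruits elongation factors, were all negative in meninges against diaphragm (median log2 fold change -0.66) and against skin (median -0.70), with 0 called. Rplp0, the base of the stalk, had 30.6, 54.2 and 103 CPM in meninges, 143, 90.5 and 86.3 in diaphragm and 58.8, 55.9 and 80.8 in skin. Rplp1, which binds it as a dimer with Rplp2, had 25.3, 43.5 and 40.9 CPM in meninges, 53.3, 35.6 and 34.8 in diaphragm and 68.7, 60.4 and 57.0 in skin, so that skin was above both other tissues in every library with TMM scaling, while by total counts it overlapped both. Rplp2 showed no such order, at 38.6, 30.2 and 59.8 CPM, 35.5, 81.5 and 95.6 CPM and 52.5, 99.3 and 48.2 CPM in meninges, diaphragm and skin. Rpl12, the partner of Rplp0 at the stalk base, had 41.0, 55.7 and 56.9 CPM in meninges, below its 75.4, 92.9 and 64.0 CPM in diaphragm, a separation that did not hold by total counts.

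The 5 small-subunit genes at the mRNA entry and decoding site, Rps3 and Rps9 the most abundant of them, were all negative in meninges against diaphragm (median -0.45) and all positive in diaphragm against skin (median 0.81), with 0 called. In meninges against skin they were divided, with 3 positive and 2 negative (median 0.16). Of 8 genes at the peptide exit tunnel, where nascent chains leave the ribosome, 6 were negative in each meningeal comparison (medians -0.21 and -0.22). Rpl5 and Rpl11, which bind the 5S ribosomal RNA and can inhibit the p53 ligase MDM2, were estimated at -0.88 (standard error 0.47) and 0.13 (standard error 0.54) in meninges against diaphragm; the difference between them was not tested. Rpl5 had 67.8, 70.2 and 82.7 CPM in meninges and 94.0, 164 and 149 in diaphragm, without overlap, while Rpl11 was between 53.4 and 87.1 CPM in the 6 libraries of those tissues and at 238 CPM in Skin replicate 3. Rpsa, also known as the laminin receptor, stood at 22.2, 58.0 and 35.9 CPM in meninges, 59.3, 35.6 and 37.2 in diaphragm and 44.97, 49.7 and 24.9 in skin, and all tissues overlapped. Of 18 genes mutated in Diamond-Blackfan anaemia, a failure of red cell production, 0 were called, and 12 were negative in each meningeal comparison.

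Members differed widely in level. Rpl4, of the exit tunnel, was the most abundant at a mean of 335 CPM over the 9 libraries, and other abundant members were Rps4x (225), Rps3 (149), Rpl3 (121) and Rpl9 (115). At the low end of the tested members were Rpl24 (3.09 CPM), Rpl23a (5.13), Rpl35 (7.32), Rps4l (9.11), Rpl27 (19.1) and Rps27l (19.97). Per kilobase of coding sequence the median level was 135 CPM (interquartile range 78.6 to 184). On that scale Rpl41, which encodes the shortest of these proteins, led at 1125 CPM per kilobase, and Rps27 (374) and Rps21 (321) followed. Whether reads were counted over whole exons was not checked. The order depended on the divisor: per kilobase of transcript Rpl41 had 161 CPM, below Rps27 (276), Rps4x (230) and Rpl4 (218). Per kilobase of coding sequence, small-subunit genes had a median of 159 and large-subunit genes of 112 CPM. Without a divisor these medians were close, at 62.6 CPM for the small and 61.0 CPM for the large subunit.

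Sequence shared with other genes bears on these levels. Of the 50-base words in a member's coding sequence (or in its transcript, where no coding sequence is annotated), a median of 90.8% occurred in the transcript of at least 1 other annotated gene in GENCODE vM21. The share was 100% for 27 members, and 67 of 82 members shared at least 50%. The counting rule for reads that match several genes is not stated in the labels or notes used here, so levels of single members are uncertain. Rps3 (8.05%) and Rpl4 (20.2%) shared few, whereas Rpl9, Rpl23a, Rps27 and Rpl41 shared all and Rpl24 99.3%. The median level was 113 CPM per kilobase over 66 members sharing at least 50% and 183 over 11 sharing less, while the rank correlation of sharing with level was weak (Spearman rho -0.16 over 77 genes, a description across genes that are not independent). The 12 tested members sharing less than 50% had a median log2 fold change of -0.42, -0.21 and 0.24 in the 3 comparisons, near the -0.42, -0.21 and 0.22 of all members.

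Between replicate libraries the members varied less than most genes. The SD of log2(CPM + 0.5) within tissues had a median of 0.525 over the 78 tested members (interquartile range 0.417 to 0.654) and 1.28 over the other 14753 genes tested. Among 2102 other genes at the members' middle levels (log2 CPM of 5.29 to 6.45) the median was 0.887, and 69 of the 78 members lay below it. Of the 78 tested members, 74 (against 34.5% of all genes tested) had at least 100 counts in all 9 libraries, and only Rpl24 lacked a count in any, where 38.4% of all genes did. The median biological coefficient of variation by gene in edgeR was 0.581 for members and 1.17 for all genes. The tests and sums above thus rest on less noise than those of a typical gene here. For comparison, 75 mitochondrial ribosomal protein genes, which are less abundant, had a median SD of 1.55, and 0 of them were called.

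**Figure D5:**
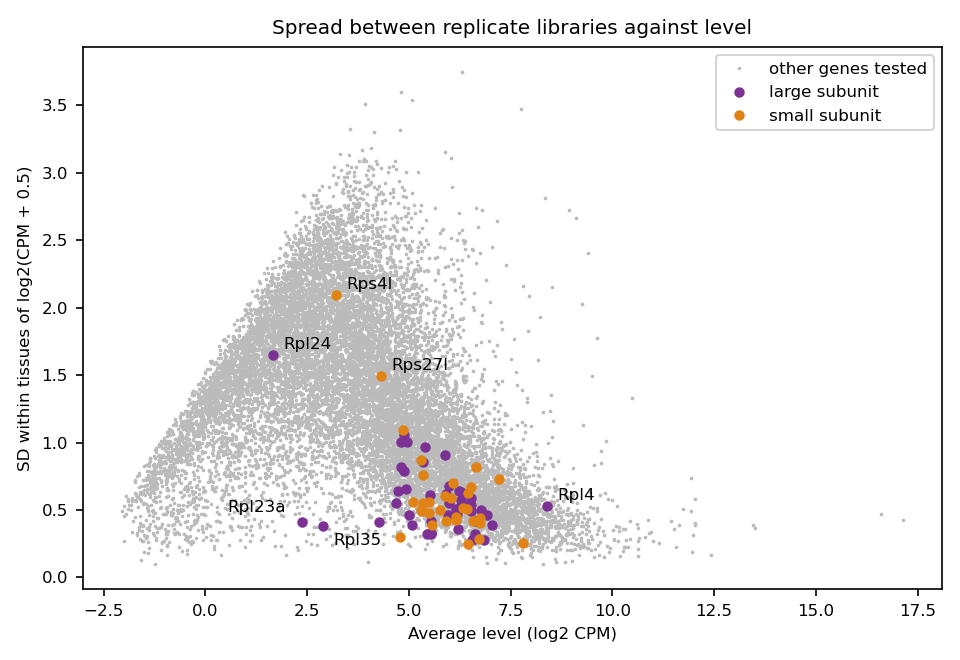
SD within tissues of log2(CPM + 0.5) against average log2 CPM for the 78 tested members, by subunit, and for the 14753 other genes tested. Most members lie at the lower edge of the cloud, with Rps4l, Rpl24 and Rps27l as the members of largest spread.

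The steadiest members were Rps18 (SD 0.249; 59.5 to 129 CPM over the 9 libraries), Rps4x (0.259), Rpl9 (0.280), Rpl31 and Rps15a. The least steady were Rps4l (2.09), Rpl24 (1.65), Rps27l (1.49), Rps10 (1.09) and Rpl39 (1.06). Rps10 fell to 9.50 CPM in Meninges replicate 2 and 6.08 in Skin replicate 3, against 23.1 to 50.3 in the other libraries. Rpl39 was at 2.70 CPM in Skin replicate 3 and at 15.6 to 53.0 elsewhere. Rpl24, a large-subunit protein at the bridge between subunits, ranged from 0 in Meninges replicate 2 to 15.02 CPM in Skin replicate 1. In contrast Rpl23a and Rpl35, at a similarly low level, kept within 3.19 to 7.59 and 4.24 to 13.3 CPM in all libraries.

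The first 60 coding bases of Rps27 and its paralog Rps27l, and of Rpl39 and Rpl39l, are shown to make plain how far reads could tell each pair apart. They are exonic sequence from GENCODE vM21, from chromosomes 3, 9, X and 16, in order, with differing bases in capitals.
Rps27: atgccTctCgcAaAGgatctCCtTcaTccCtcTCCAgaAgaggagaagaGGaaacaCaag
Rps27l: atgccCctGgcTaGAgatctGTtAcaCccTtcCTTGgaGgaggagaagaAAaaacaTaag
Rpl39: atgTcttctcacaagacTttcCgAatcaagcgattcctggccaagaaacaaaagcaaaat
Rpl39l: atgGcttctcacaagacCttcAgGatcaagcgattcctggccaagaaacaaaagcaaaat
Over the whole coding sequence Rps27 and Rps27l were 76.1% identical, with no identical run longer than 11 bases. Rpl39 and Rpl39l were 85.3% identical, with a run of up to 38 bases, still shorter than the 50-base word.

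Rps27l, a target of p53, had 26.6, 39.9 and 10.2 CPM in meninges, 0.295, 2.65 and 11.5 in diaphragm and 27.9, 7.71 and 53.0 in skin. With TMM scaling Diaphragm replicate 3 overlapped the other tissues. By total counts it overlapped skin alone, at 10.7 against 11.2 in Meninges replicate 3. No difference was called. The log2 fold change was -2.62 for diaphragm against skin (standard error 1.34, edgeR adjusted p = 0.47). It was 2.41 for meninges against diaphragm (standard error 1.33, edgeR adjusted p = 0.62). Against skin the diaphragm estimate was -4.32 without Diaphragm replicate 3 and -1.89 without Skin replicate 3. Rps27 had 47.3, 64.6 and 86.4 CPM in meninges, 159, 118 and 102 in diaphragm and 129, 85.7 and 66.7 in skin, so the estimates of the pair had opposite signs between meninges and diaphragm. Of the counts of the pair, Rps27l held from 0.185% in Diaphragm replicate 1 to 44.3% in Skin replicate 3.

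Rps4l, annotated without a coding sequence, had 8.83, 9.34 and 13.5 CPM in meninges but 0.479, 0.114 and 24.9 in diaphragm and 0.542, 18.6 and 5.67 in skin. Its spread within diaphragm exceeded any difference between tissues. Its X-linked relative Rps4x had 147, 177 and 219 CPM in meninges, 321, 248 and 254 in diaphragm and 207, 266 and 183 in skin. This placed meninges below diaphragm in all libraries with TMM scaling (-0.60, standard error 0.34, edgeR adjusted p = 0.648). By total counts they overlapped, with 241 in Meninges replicate 3 and 238 in Diaphragm replicate 3.

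The tissue-restricted paralogs had few counts. Rpl3l had 3 counts in Diaphragm replicate 3 and none elsewhere, and the skeletal muscle markers summed to 390 CPM in that library and to 538 and 1041 CPM in the other diaphragm libraries; their part in these counts was not tested. Rpl10l had 4 counts, all in Meninges replicate 3. Rpl39l had 409 counts (12.8 CPM) in Meninges replicate 2 and 0 in the 8 other libraries, where a count of 0 allows up to 3 counts, or 0.0793 to 0.137 CPM by library (counting error only). In that library it held 31.9% of the counts of the pair with Rpl39, whose own level of 27.3 CPM was within the range of the other libraries. Rpl6l had 3 to 11 counts in each library.

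Other parts of the translation machinery gave 0 calls as well. Among 41 ribosome biogenesis genes, 30 were negative in meninges against diaphragm (median log2 fold change -0.41), with Ncl (nucleolin) at 390 ± 21, 519 ± 55 and 459 ± 30 CPM (SD, n = 3 each) for meninges, diaphragm and skin. Of 12 other TOP mRNAs, 10 were negative (median -0.28), among them Tpt1 at 201 ± 31, 332 ± 34 and 241 ± 44 CPM. Eef1a1, the elongation factor that delivers aminoacyl-tRNA, had 492 ± 65, 881 ± 156 and 638 ± 92 CPM. Initiation factors (16 of 23 negative, median -0.23), elongation factors (4 of 7, median -0.19) and regulators of TOP mRNA translation such as Larp1 (9 of 14, median -0.32) held 0 called genes in any comparison. The mitochondrial ribosomal proteins, whose ribosome is separate, were divided, with 43 of 75 negative (median -0.19).

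Over the 9 libraries the members moved together only loosely. The median Pearson correlation of log2(CPM + 0.5) over 3003 pairs of members was 0.219, with 70.3% of pairs positive, and 0.172 after tissue means were removed. All pairs share the same libraries and scaling. The genes outside the set whose pattern was most like the members' mean pattern were Arhgap33 (r = 0.957), Dcaf13 (0.933), Hilpda (0.933), Hnrnpf (0.926) and Sptlc1 (0.919), chosen as the highest of all genes tested, so these values are a description only.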

How the data were processed

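Per the labels' protocols, LEC RNA was extracted with PicoPure and amplified with NuGEN Ovation; it gave 9 libraries, 3 per tissue. The values are the deposited whole-number read counts per gene. The submitters' processing notes name FastQC, STAR, HTSeq and the build mm9. Not given in the sources used here are versions, annotation, strand setting and the rule for ambiguous reads, so antisense and overlapping genes cannot be told apart.

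The test was that of edgeR 4.0.16 (R 4.3.3; filterByExpr, TMM, quasi-likelihood fit with 1 mean per tissue over 9 libraries, Benjamini-Hochberg over 14831 genes, threshold 0.05), after a check on simulated data. Alternatives used DESeq2 1.42.0, limma 3.58.1 voom, other factors and filters, 2 tissues, a replicate block and each library left out. No library repeated another: between replicates the chi-square of counts per degree of freedom was 308 to 507. The members and lists were chosen with earlier results of these data known. Named are the 4 stalk and laminin receptor genes, paralogs, the 6 highest and 6 lowest by level, the 4 smallest p per comparison, the 5 largest and 5 smallest spreads, the 2 most abundant of other lists and 5 genes of like pattern, not all of them printed; others were named after their values were seen. Coding lengths and shared words came from GENCODE vM21, used for sequence only, and plots from matplotlib 3.10.9. Some members count in the totals but are not reported here by name.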

Additional observations from a re-analysis of the deposited data

How the results depend on the processing

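In each of 19 alternative settings, 0 members were called higher and 0 lower in all 3 comparisons, and the smallest adjusted p was 0.0568 (Rps3, DESeq2 Wald test). With the replicate number as a block (replicate block), 0 members were called. Deviations from tissue means correlated at -0.0158 to 0.0508 between same-numbered libraries and at -0.0531 to 0.0419 between others. With 3 libraries per tissue and this spread, such values cannot tell whether the numbers pair samples. Over all genes the block gave 37 higher and 33 lower between meninges and diaphragm, against 25 and 26. Over all genes the DESeq2 Wald test called 408 and 223 in that comparison and voom 113 and 87. With each library left out in turn, the count of called members ran from 0 to 0, and the median log2 fold change from -0.50 to -0.38 (meninges against diaphragm), -0.40 to -0.14 (meninges against skin) and 0.03 to 0.35 (diaphragm against skin). With total counts in place of TMM the meningeal large-subunit sum was 2930 CPM, and the members with meningeal libraries below all diaphragm libraries numbered 12 (15.4%, against 4.90% of all genes), with 2 above (2.56%, against 12.4%); the median log2 fold change between meninges and skin reversed to 0.15, in a shift of 0.36 that all genes share. DESeq2 factors, upper-quartile factors and TMM without members and mitochondrial genes gave 20 to 22 below (25.6% to 28.2%, against 6.44% to 6.76% of all genes). They gave 0 above, against 10.3% to 10.6% of all genes. Their use here was chosen after seeing the data. So was the restriction to members sharing under 50% of words, which gave large over small ratios of 0.922 (meninges), 0.953 (diaphragm) and 0.988 (skin). Precision is limited by the spread between libraries, with a common biological coefficient of variation of 1.24 over all genes.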
